A study of Danio rerio with 6 samples.

Results

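TRiC, also called CCT, is the chaperonin of the eukaryotic cytosol, a closed double ring whose chamber takes up newly made proteins and folds them with energy from ATP. Each ring is built from different but related subunits, each encoded by its own gene, and actin and tubulin are its best known clients. In zebrafish, loss of single TRiC subunits is known to disturb tissues that make much actin and tubulin, such as skeletal muscle and the retina. Of the 13466 genes in the deposited table, the entries named *tcp1*, *cct2*, *cct3*, *cct4*, *cct5*, *cct6a*, *cct7* and *cct8* were taken as the TRiC subunit genes. All 8 were listed under these symbols. All 8 also passed the filter on low counts, in a test that covered 12471 genes.

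The RNA was taken at 18hpf from pools of whole zebrafish embryos without chorion and yolk. There were 3 libraries of homozygous *hoxb1b* mutants (hoxb1b-/-, allele um197 according to the methods) and 3 libraries of wildtype embryos. The experiment asked which genes depend on *hoxb1b*, a paralog group 1 Hox gene that acts early in hindbrain patterning. The labels name no treatment for either genotype. RNA of a whole embryo does not tell which tissue a transcript came from, nor fewer cells of a type from less RNA per cell. No sequencing batch is named in the labels, and it is not stated if each library had a pool of its own, so the p-values measure only the spread between these libraries.

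Total counts lay between 19139322 and 29146812 in the mutant libraries and between 19934858 and 23725696 in the wildtype libraries. Levels are given as CPM, which are counts scaled to a common library size by TMM, and log2 fold changes, fitted with edgeR, have the mutant on top. Transcripts of the mutated gene *hoxb1b* were present at 84.4 ± 0.787 CPM in mutants and 69.1 ± 2.37 CPM in wildtype (SD, n = 3 each), so its level does not tell the mutant libraries by a loss of RNA. Markers of several tissues differed between the genotypes. All 15 fast muscle genes were lower, with 5359 to 5492 summed CPM in mutants and 16410 to 16650 in wildtype, and all 10 genes of the presomitic mesoderm and tailbud were higher, with 514.6 to 525.4 summed CPM in mutants and 266.8 to 268.8 in wildtype. Of 7 primitive erythroid genes 6 were lower, at 665.2 to 680.0 summed CPM in mutants and 2267 to 2287 in wildtype, and of 6 early neuron genes 5 were lower, at 165.4 to 167.4 summed CPM in mutants and 228.2 to 237.6 in wildtype. Other lists were mixed. Of 6 epidermis genes 2 were higher and 3 lower, at 24050 to 24410 summed CPM in mutants and 24060 to 24730 in wildtype. Of 3 tested yolk layer genes 2 were higher and 1 lower. Their sum was 2124 to 2149 CPM in mutants and 1685 to 1716 CPM in wildtype. At the same limit, an adjusted p under 0.05, 32.6% of all tested genes were higher and 33.6% lower. No gene of these lists was at 0 in any library, and the part of these tissues in the TRiC values was not tested.

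The TRiC subunits were among the abundant transcripts of the embryo in both genotypes. Their mean levels ranged from 475.0 CPM for *cct2* to 834.8 CPM for *cct6a*, a band reached or exceeded by only 311 (2.49%) of the tested genes. The table gives no transcript lengths, so these levels do not rank the subunits against each other. Counts for a subunit in a library lay between 9017 and 24330, for which counting error alone is between 0.641% and 1.05%. The SD between libraries of one genotype was 0.405% to 1.63% of the mean in mutants and 1.26% to 2.63% in wildtype. Summed over the 8 genes, the mutant libraries held 5502, 5550 and 5478 CPM and the wildtype libraries 5386, 5304 and 5418 CPM. Every mutant library was above every wildtype library. Such a lack of overlap was common, as it held for 83.6% of the 311 genes singly. The means were 5510 ± 36.8 CPM in mutants and 5369 ± 58.7 CPM in wildtype (SD, n = 3 each), a ratio of 1.026. The size of this ratio rests on TMM, and it was not computed with total counts alone. As another measure, the median log2 fold change of the subunits was 0.070 with total counts alone, against 0.025 with TMM.

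While the sum differed little, the single subunits moved by small amounts in both directions. With an adjusted p under 0.05, *tcp1*, *cct3* and *cct5* were higher in mutants, *cct2*, *cct4* and *cct6a* were lower, and *cct7* and *cct8* did not pass. These 6 of 8 genes stand beside 66.2% of all tested genes with an adjusted p under 0.05. Of all tested genes 32.6% were higher and 33.6% lower at this limit. Among the 311 genes at least as abundant as *cct2*, the share was 86.2%. The count of members called is therefore near the background. The sizes of the changes were small. The median log2 fold change over the 8 genes was 0.025, against -0.0034 over all tested genes, and the median size without sign was 0.053, against 0.235 over all tested genes and 0.154 over the 311 abundant ones. The largest change, that of *cct3*, was 1.13-fold, and the 95% intervals of all 8 fold changes lay between 0.920 and 1.17. The study's methods called genes by a change of over 2-fold alone, a size that 0 of the 8 reached with edgeR or DESeq2, against 8.38% of all tested genes with edgeR. With an adjusted p under 0.05 required as well, the share of all tested genes was 8.36%. The even split of directions rests on the scaling. With total counts alone, 5 subunits were higher and 0 lower (also 0 at an unadjusted p under 0.05, and 2 lower with DESeq2), with DESeq2's size factors 4 were higher and 2 lower, and with upper quartile scaling 2 were higher and 3 lower.

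**Figure D1:**
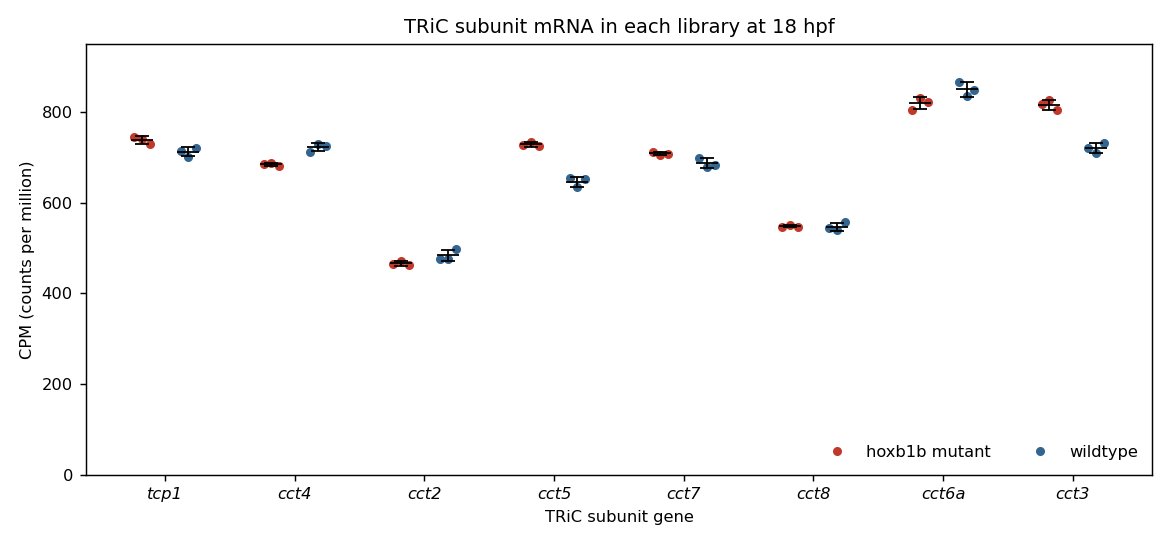
Level of each TRiC subunit in CPM (y axis, from 0) in the 3 *hoxb1b* mutant libraries (red, left of each pair) and the 3 wildtype libraries (blue, right). Points are libraries, and the bars are the mean and SD of a genotype. *cct3* and *cct5* stand clearly higher in mutants, while the genotypes of the other subunits lie close to each other.

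The subunits are described in the order they take around the ring as known from yeast and cattle TRiC, beginning with CCT1. Biochemical work in yeast divides this ring into a side that binds and hydrolyses ATP readily, made of CCT1, CCT4, CCT2 and CCT5, and a side that does so weakly, made of CCT7, CCT8, CCT6 and CCT3. *tcp1* encodes CCT1, the subunit after which the complex was first named. It had 745, 741 and 729 CPM in mutant libraries and 713, 702 and 722 CPM in wildtype libraries. Every mutant library was above every wildtype library, but the gap between the nearest of them was about the size of the spread within a genotype. The log2 fold change was 0.052 ± 0.021 (SE, edgeR adjusted p = 0.0304). Its adjusted p was over 0.05 without mutant replicate 1 (0.0902), without mutant replicate 2 (0.0563) and without wildtype replicate 2 (0.102). The same held with upper quartile scaling (0.0508) and when each library had to hold 10 counts (0.0604). With total counts alone the log2 fold change was 0.097 (adjusted p = 0.000115 from edgeR).

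*cct4* encodes the subunit beside CCT1, one of those that touch actin inside the chamber in mammals. Its level was 684, 687 and 682 CPM in mutants and 712, 730 and 725 CPM in wildtype. The mutant libraries were nearly identical and all lay below the wildtype libraries. This was the clearest reduction among the subunits, with a log2 fold change of -0.078 ± 0.021 (SE, edgeR adjusted p = 0.00149). When single libraries were left out it ranged from -0.088 to -0.070, and the adjusted p stayed under 0.05 each time. With total counts alone it was -0.033 (adjusted p = 0.156 from edgeR).

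*cct2*, the neighbour of CCT4 in the ring, encodes a subunit whose human gene is linked to an inherited retinal dystrophy. It had 464, 472 and 463 CPM in mutant libraries and 477, 476 and 498 CPM in wildtype libraries. The mutant values were lower, though mutant replicate 2 came within a few CPM of the wildtype libraries 1 and 2, and wildtype replicate 3 stood above the others. The log2 fold change of -0.053 ± 0.023 (SE, edgeR adjusted p = 0.0406) did not hold its call. The adjusted p was 0.226 without wildtype replicate 3, 0.0539 without mutant replicate 2, 0.122 without mutant replicate 1 and 0.151 without mutant replicate 3. With total counts alone the log2 fold change was -0.0071 (adjusted p = 0.784 from edgeR).

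*cct5*, for which a zebrafish mutant with muscle defects is known, and whose human gene is linked to a sensory neuropathy, was one of the 2 subunits with the larger changes. Its level was 728, 735 and 724 CPM in mutants and 654, 634 and 652 CPM in wildtype. The lowest mutant library was well above the highest wildtype library. *cct5* rose in mutants with a log2 fold change of 0.17 ± 0.021 (SE, edgeR adjusted p = 3.00e-08), or 1.13-fold, with a 95% interval from 1.09 to 1.16. Its range was 0.16 to 0.18 when single libraries were left out, and 0.17 to 0.22 with the other scalings.

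*cct7* encodes the first subunit of the side that binds ATP weakly. It had 712, 706 and 707 CPM in mutant libraries and 699.6, 680 and 682 CPM in wildtype libraries. The mutant libraries all lay above the wildtype libraries, with wildtype replicate 1 close to them. The log2 fold change was 0.044 ± 0.021 (SE, edgeR adjusted p = 0.0631, unadjusted p = 0.0427). The 95% interval of the fold change was from 1.001 to 1.06. Without wildtype replicate 1 the log2 fold change was 0.058, with an adjusted p of 0.0267 from edgeR. Scaling by total counts alone gave 0.090, with an adjusted p of 0.000377 from edgeR. The adjusted p from edgeR was also under 0.05 with DESeq2's size factors (0.0482) and without the filter on low counts (0.0286).

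*cct8*, which encodes the neighbour of CCT7 in the ring, was the only subunit whose libraries overlapped between the genotypes. Its level was 547, 552 and 547 CPM in mutants and 543, 539 and 557 CPM in wildtype. The mutant libraries fell within the range of the wildtype libraries. The log2 fold change of 0.0051 ± 0.021 (SE, edgeR adjusted p = 0.845) has a 95% interval of the fold change from 0.974 to 1.03. With total counts alone it was 0.051 (adjusted p = 0.0318 from edgeR).

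*cct6a* encodes CCT6, another subunit of the weakly binding side. It had 805, 831 and 821 CPM in mutant libraries and 867, 834 and 850 CPM in wildtype libraries. The genotypes did not overlap, but mutant replicate 2 and wildtype replicate 2 were nearly equal. The log2 fold change was -0.054 ± 0.021 (SE, edgeR adjusted p = 0.0294). The adjusted p was 0.176 without mutant replicate 1, 0.145 without wildtype replicate 1 and 0.0761 without mutant replicate 3. Scaling by total counts alone gave a log2 fold change of -0.0080 (adjusted p = 0.750 from edgeR).

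*cct3*, which encodes the subunit that closes the ring beside CCT1, changed most. It had 818, 826 and 803 CPM in mutants and 719.6, 709 and 732 CPM in wildtype. As for *cct5*, the genotypes were far apart compared with the spread within each. *cct3* rose with a log2 fold change of 0.18 ± 0.021 (SE, edgeR adjusted p = 1.86e-08), and its range was 0.17 to 0.19 when single libraries were left out. A change of at least this size was still common in these libraries, since only 40.1% of all tested genes changed by less. *cct5* and *cct3* lie on different sides of the ring and are not neighbours in it. With TMM, each side held subunits called higher and subunits called lower. On the weakly binding side the only lower subunit was *cct6a*, whose call was lost without some single libraries. With total counts alone, 0 subunits were called lower.

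**Figure D2:**
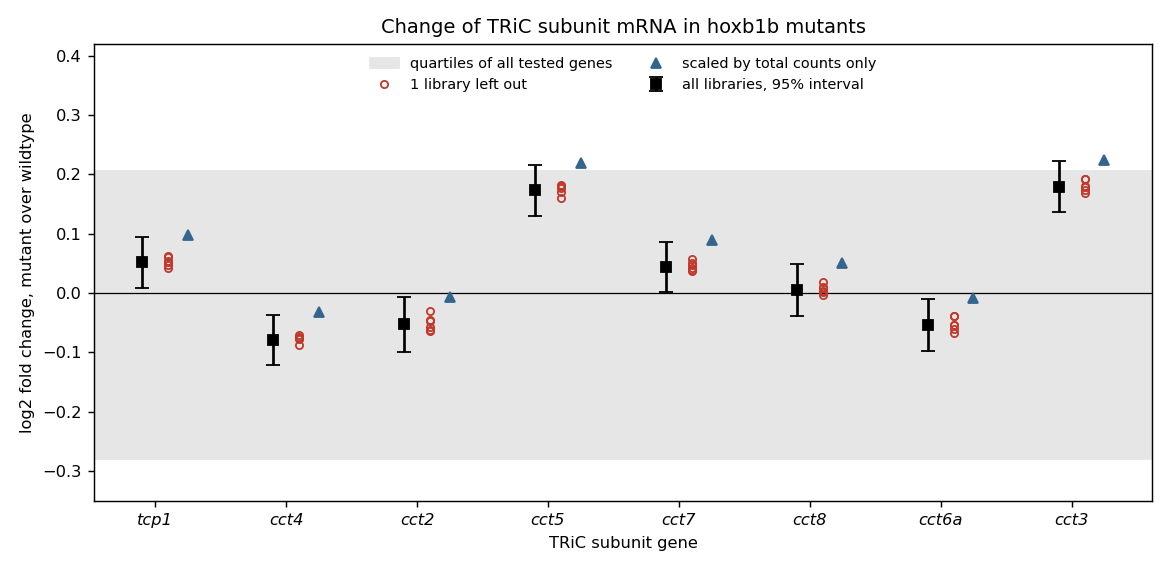
Log2 fold change of each TRiC subunit, mutant over wildtype (y axis), with its 95% interval from all libraries (black squares), with 1 library left out (open red circles) and with scaling by total counts only (blue triangles). The grey band lies between the quartiles of all tested genes, -0.28 and 0.21. All 8 squares fall within it, and only *cct3* and *cct5* are far from 0.

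The libraries of the genotypes did not overlap for 7 of the 8 subunits, 4 higher and 3 lower, which stands beside 68.1% of all tested genes and 83.6% of the 311 abundant genes. In wildtype, replicate 2 was the lowest library for 7 of the 8 subunits, the exception being *cct4*, for which it was the highest. In mutants, replicate 3 was the lowest library for 5 of the 8. These orders were not counted over all tested genes, so they are not read as particular to TRiC. In RefSeq's annotation (assembly GRCz12tu) the 8 genes lie on 8 different chromosomes, and 0 of them share the chromosome of *hoxb1b*. For all 8, some deposited counts were fractional, as arises when a read is divided between transcripts of different genes. Over all genes of the table, counts were whole in every library for 55.7%.

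Because any scaling moves all subunits of a library together, the subunits were also compared with each other inside a library. The share of *cct3* in the summed TRiC level was 14.9%, 14.9% and 14.7% in mutant libraries and 13.4%, 13.4% and 13.5% in wildtype libraries. That of *cct5* was 13.2% in each mutant library, and between 11.9% and 12.1% in wildtype libraries. Both shares were higher in every mutant library than in any wildtype library. In the other direction, *cct4* made up 12.4%, 12.4% and 12.5% of the sum in mutants and 13.2%, 13.8% and 13.4% in wildtype. The share of *cct6a* was 14.6%, 15.0% and 15.0% in mutants and 16.1%, 15.7% and 15.7% in wildtype, and that of *cct2* was 8.44%, 8.50% and 8.45% in mutants and 8.85%, 8.98% and 9.20% in wildtype. These 3 subunits were lower in every mutant library. The share of *cct8* was slightly lower, at 9.95% ± 0.0267 in mutants and 10.2% ± 0.0978 in wildtype (SD, n = 3 each), although its CPM did not pass the test. *tcp1* at 13.4% ± 0.119 in mutants and 13.3% ± 0.0464 in wildtype and *cct7* at 12.9% ± 0.121 in mutants and 12.8% ± 0.198 in wildtype overlapped between the genotypes (SD, n = 3 each). Shares add up to the whole, so a higher share of one subunit lowers the others. Of the 8 shares, 6 did not overlap between the genotypes. The CPM of 83.6% of the 311 abundant genes did not overlap either, so this count is not read as particular to TRiC. Shares within other gene sets were not computed.

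**Figure D3:**
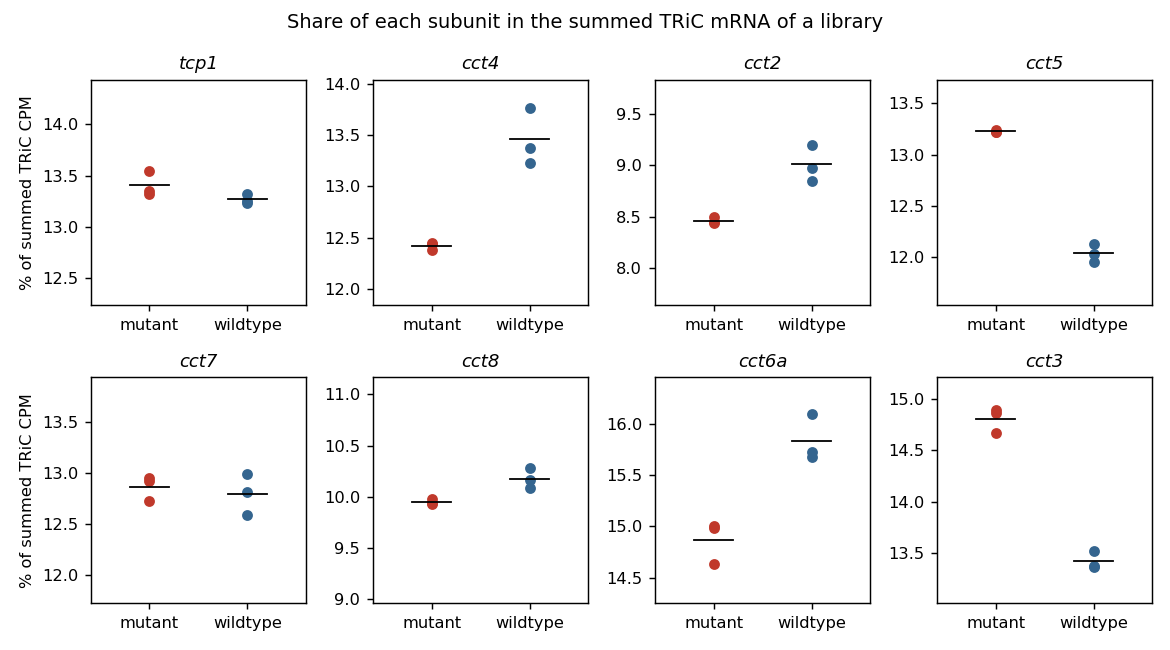
Share of each subunit in the summed TRiC CPM of a library (y axis in percent, each panel spanning the same number of percentage points but not starting at 0), for the 3 *hoxb1b* mutant libraries (red, left) and the 3 wildtype libraries (blue, right), with the mean as a line. *cct3* and *cct5* take a larger share in mutants, and *cct4*, *cct2* and *cct6a* a smaller one.

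Ratios of pairs of subunits do not depend on the scaling. Of the 28 pairs, 22 had ratios that did not overlap between mutant and wildtype libraries, which stands beside 83.9% of all pairs among the 311 abundant genes. On the log2 scale, a ratio changes by the difference between the changes of its genes. Overlap also depends on the spread between libraries. The change was 0.0395 for *cct7* to *cct8*, which overlapped, and 0.0471 for *tcp1* to *cct8*, which did not. The 6 pairs that overlapped joined subunits with like changes. They were *cct3* with *cct5*, *cct2* with *cct4*, *cct2* with *cct6a*, *cct4* with *cct6a*, *tcp1* with *cct7*, and *cct7* with *cct8*. The ratio of *cct3* to *cct5* averaged 1.12 in mutants and 1.11 in wildtype. The same transcripts set against *cct4* gave clearly different ratios. That of *cct3* to *cct4* averaged 1.19 in mutants, with 1.18 as the lowest library, and 0.997 in wildtype, with 1.01 as the highest library, a difference of 0.26 on the log2 scale and the largest of the 28. Each ratio holds for one pair across libraries, and its level depends on the lengths of both transcripts. As the pairs were picked out after their values were seen, these ratios are a description and were given no test.

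Cofactors that work with TRiC were counted in lists that name their members in full. The counts in these lists, and in those of clients and other chaperones, stand beside 66.2% of all tested genes with an adjusted p under 0.05. Of all tested genes 32.6% were higher and 33.6% lower. A count near these shares is not a result about its list. Prefoldin carries unfolded actin and tubulin to TRiC, and of its 5 tested subunits 4 rose and 1 fell. *pfdn6* rose with a log2 fold change of 0.26 and *pfdn1* with 0.22, *vbp1*, which encodes the third prefoldin subunit, with 0.17, and *pfdn5* with 0.063, while *pfdn2* fell to 129 ± 1.85 CPM in mutants, against 156 ± 4.21 CPM in wildtype (SD, n = 3 each). The median of the list was 0.17, compared with 0.025 for TRiC. Of 4 phosducin-like and related TRiC-binding proteins, *txndc9* rose by 0.13 and *pdcl3* and *pdcd5* fell by 0.13 and 0.11 on the log2 scale, and *pdcl* had 0.060 without passing. The 2 reductions did not pass with total count scaling. Of 5 tested cofactors that take tubulin on from TRiC, *tbcb* and *tbcc* rose and *tbca* fell. The R2TP complex and its prefoldin-like partners assemble other complexes, and 4 of their 8 genes rose, among them *ruvbl2* with a log2 fold change of 0.33 and *uri1* with 0.20.

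The mRNAs of TRiC clients covered a wider range of changes than the subunits. The cytoplasmic actin genes both fell, *actb2* to 6342 ± 84.9 CPM in mutants, against 8199 ± 85.7 CPM in wildtype, and *actb1* to 5276 ± 47.8 CPM in mutants, against 5894 ± 152 CPM in wildtype (SD, n = 3 each). All 5 tested muscle actin genes fell, *actc1b* by 1.47 and *acta1b* by 1.00 on the log2 scale. Among 18 tested tubulin genes 9 fell and 6 rose, with a median of -0.17, beside 33.6% lower and 32.6% higher over all tested genes. Among the abundant tubulins, *tuba8l4* and *tubb4b* rose by 0.061 and 0.062 on the log2 scale. The also abundant *tuba1a* fell by 0.40, and *tubb2b* had -0.034 without passing. *tuba8l* and *tuba8l2*, at 714 and 464 CPM in mutants and 640 and 363 CPM in wildtype, rose by 0.16 and 0.35. *tuba1c* and *tubb5*, at 334 and 313 CPM in mutants and 420 and 350 CPM in wildtype, fell by 0.33 and 0.16. The less abundant *tuba1b* fell by 0.71. Summed over the 18 tubulin genes, mutant libraries held 9998 to 10360 CPM and wildtype libraries 10240 to 10640 CPM, which overlap. Actin and tubulin genes have close copies, so the division of reads among them is uncertain. Of 12 other genes whose products are described as TRiC clients in mammals or yeast, 6 rose. They were the cell cycle genes *cdc20*, *plk1* and *fzr1a*, with log2 fold changes of 0.068, 0.10 and 0.16, and *stat3*, *hdac3* and *vhl*, with 0.27, 0.27 and 0.37. The fall of 3 others, *gnb2*, *gnb5a* and *gnb5b*, which encode G protein beta subunits, was larger, with log2 fold changes between -0.85 and -0.58, at levels of at most 10.4 CPM in mutants and 15.7 CPM in wildtype. Their relatives *gnb1a* and *gnb1b*, at 212.9 and 193.5 CPM in mutants and 208.7 and 198.6 CPM in wildtype, had log2 fold changes of 0.029 and -0.039 and did not pass (adjusted p = 0.306 and 0.217 from edgeR). Muscle markers moved with the muscle actins, as given above, and their part in these values was not tested.

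Other chaperone systems had changes of other sizes and directions. Of 16 tested cytosolic Hsp70 and Hsp90 chaperones and partners 14 fell and 2 rose, with a median log2 fold change of -1.01, and 8 of the 14 fell more than 2-fold. The stress-inducible *hsp70.1* had 24.8 ± 1.08 CPM in mutants and 319 ± 7.06 CPM in wildtype (SD, n = 3 each), while the constitutive *hspa8* and *hsp90ab1* had log2 fold changes of -0.18 and -0.19. The change of the constitutive genes was close in size to that of *cct3* but opposite in sign. The heat shock factor genes *hsf1* and *hsf2*, whose mammalian products switch on chaperone genes including those of TRiC, rose by 0.14 and 0.53 on the log2 scale. Mitochondria carry a chaperonin of their own, and its genes *hspd1* and *hspe1* fell by 0.39 and 0.30 on the same scale. Of 12 chaperones of the endoplasmic reticulum 10 fell and 1 rose, with a median of -0.34. In contrast, 34 of 35 proteasome subunit genes rose, with a median of 0.35, and the lowest of them, *psma2*, had a log2 fold change of 0.051 without passing the test. The median of the 8 TRiC genes lay between those of the Hsp and proteasome lists, and the differences between lists were not tested. With a coefficient of variation of 0.2 assumed between libraries in place of the estimated 1.85%, 12.7% of all tested genes passed. Then 9 of the Hsp list and 4 of the endoplasmic reticulum list still fell. Of the proteasome genes 0 passed (7 higher at an unadjusted p under 0.05, and 34 higher with DESeq2 and its own estimate of the spread), and of 6 mitochondrial chaperone genes 0 passed (1 lower unadjusted, and 1 higher and 3 lower with DESeq2). Of the TRiC genes 0 passed too (also 0 unadjusted, and 3 higher and 2 lower with DESeq2). The prefoldin, phosducin-like, tubulin cofactor, R2TP and cytoplasmic actin lists had 0 passing as well (also 0 unadjusted). Of the heat shock factors 0 passed (1 higher unadjusted). Muscle actins kept 3 lower, tubulins 2 lower and other clients 1 lower, each with 0 higher. With DESeq2, each of these lists had genes that passed.

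**Figure D4:**
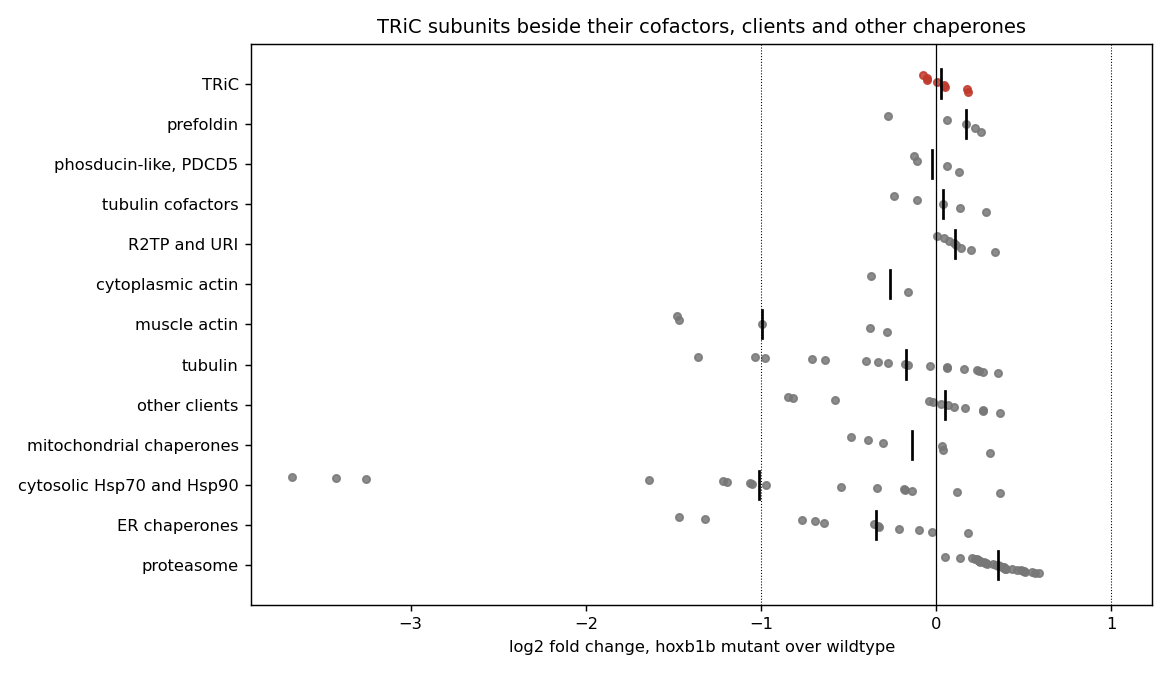
Log2 fold change, *hoxb1b* mutant over wildtype (x axis), of each tested gene (points) of TRiC (red) and of its cofactors, clients and other chaperone and proteasome lists (grey), with the list median as a bar and dotted lines at 2-fold. TRiC genes span -0.078 to 0.18, the Hsp list -3.68 to 0.37 and the proteasome list 0.051 to 0.59.

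The genes most like the average TRiC profile were sought among 6037 genes with at least 20 CPM, by the root mean square difference in log2 CPM over the 6 libraries with each gene set to its wildtype mean. The nearest 5 were *nfyc*, *neo1a*, *rnf168*, *nr2f5* and *gpx4b*, at distances from 0.0082 to 0.012, where the median gene was at 0.129. Their log2 fold changes lay between 0.024 and 0.048, and their adjusted p between 0.0967 and 0.438 from edgeR. The TRiC subunits themselves were at distances from 0.015 to 0.103. The 5 genes were picked as the nearest of 6037, so their smaller distances follow from the choice and say nothing about TRiC.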

How the data were processed

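The authors deposited expected counts, that is estimated reads per gene and library without normalization, for 13466 genes. Submitters' processing notes name RSEM 1.2.28, DESeq2, GRCz10 and danRer7 without their roles. Adjusted p-values, log2 fold changes and the same changes as a ratio, all from the authors' own comparison, were deposited in the same table and not used. Rounded counts were modelled with edgeR 4.0.16 (R 4.3.3). The steps were filterByExpr, TMM scaling (factors 0.978 to 1.02) and the quasi-likelihood test on genotype alone, with Benjamini-Hochberg adjustment over 12471 genes. The code was tested on simulated data. An SE was obtained by dividing the absolute log2 change by the root of F. Total counts lay between 19139322 and 29146812 per library, and counting errors cover sampling of reads only. Replicates of a genotype differed by more than counting noise (chi-square per degree of freedom 1.46 to 1.95), and each was kept as a sample. Library preparation can also add such differences, so they do not tell whether each library had a pool of its own.

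Members and lists were chosen with earlier results of these data known. Genes named are the TRiC subunits, *hoxb1b*, members of the lists and the 5 genes with the nearest profile. Symbols were matched as written or by RefSeq synonym. Alternatives were other scalings, DESeq2 1.42.0, other filters, unrounded counts, a replicate block, a fixed coefficient of variation of 0.2 and leaving out each library. Levels per transcript length and sequences were not analysed here.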

Additional observations from a re-analysis of the deposited data

How the results depend on the processing

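All 15 alternatives left every subunit under 2-fold. *cct3* and *cct5* had positive log2 fold changes and *cct4* negative ones in all 15. These 3 lost their call at a coefficient of variation of 0.2, with log2 fold changes as before (0.18, 0.17 and -0.078), and *cct4* also with total counts (-0.033). The other calls were less firm. With total counts, 5 subunits were higher and 0 lower, and the median log2 fold change was 0.070. Without a filter 1 was lower. At a coefficient of variation of 0.2, 0 were higher and 0 lower, and 1590 genes of all tested passed. Leaving out 1 library gave 1 to 3 lower and 2 to 4 higher, and 7635 to 7882 genes of all tested. Only 1 was lower without mutant replicate 1 or without mutant replicate 3. *cct8* changed sign, never passing the test there, at -0.00019 with upper quartile scaling and -0.0018 when each library had to hold 10 counts. When single libraries were left out, *cct8* ranged from -0.0038 (without wildtype replicate 2) to 0.019. Replicate numbers gave no clear pairing of the libraries (correlations of same-numbered deviations 0.0647, 0.0431 and -0.0318). Mutant replicates 1 and 2 correlated best with their own number, and mutant replicate 3 with wildtype replicate 2 (0.0741). The numbers are those of the sample titles, which differ from the mutant numbers in the submitters' descriptions. With a replicate block 3 were higher and 2 lower, with *cct2* at an adjusted p of 0.0547 from edgeR, and 8155 genes passed. With TMM, the interval of *cct8* includes no change. Its call rests on the scaling, since *cct8* passed with total counts alone (0.051, adjusted p = 0.0318 from edgeR). Changes confined to one tissue are not resolved in whole embryos.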
